A study of Rattus norvegicus with 6 samples.

Results

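Rab GTPases are small switch proteins of the Ras superfamily that direct vesicles to their target membranes. The genes described here are the rows of the deposited expression table whose symbol is Rab followed by 1 or 2 digits and at most 1 lower-case letter. They numbered 55 of 35362 gene rows. The rule reads the symbol alone, but it was chosen with earlier results of these data known. The libraries came from INS-1 cells, an insulin-secreting line from a rat insulinoma often used in place of primary beta cells, at passages 75 to 80. All cells carried a Flag-tagged menin mutant delivered with a retrovirus of the pMX-puro type. In 1 group (S487A) a serine of menin was changed to alanine, a residue without a site for phosphate, and in the other (S487D) to aspartate, whose negative charge is often taken to stand for phosphoserine. Each group held 3 libraries of messenger RNA, and the labels do not say whether these came from separate cultures or transductions, or whether a population was 1 clone. Both groups carry a mutant, so every direction is S487D relative to S487A and none is relative to unmodified cells.

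Each Rab cycles between an inactive form bound to GDP, held in the cytosol by a dissociation inhibitor (GDI), and an active form bound to GTP on a membrane. Exchange factors load GTP, GTPase-activating proteins speed its hydrolysis, and lipid (geranylgeranyl) groups added to the C-terminus anchor the protein. The active form recruits effectors that move, tether or dock vesicles, and each organelle carries its own set of Rabs. In beta cells, Rab3 and Rab27 proteins sit on insulin granules and act in their docking and release, while other members serve the Golgi, endosomes and lysosomes that build and recycle the secretory machinery.

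The libraries held 9444801 to 10867549 reads in listed genes, recovered from gene length and RPKM (reads scaled to gene length in kilobases and to library size). For a gene of 1 kb, 1 read equalled 0.0920 to 0.106 RPKM. Men1 was read at 74.3 ± 2.80 RPKM (SD, n = 3) in S487A and 112 ± 7.81 in S487D, which cannot be split between transgene and rat gene here. All 14 listed beta cell markers were above 1 RPKM in at least 3 libraries, but they differed between the groups: 9 were higher and 4 lower in S487D by the test described below. Ins1 (log2 change 1.84) and Mafa (1.89) were among the higher ones and Nkx6-1 (-1.03) among the lower ones. The summed level of the 14, mostly Ins1 and Chga, was 9102 to 9720 RPKM in S487A and 21327 to 22489 in S487D. Mean Ins1 was 4683 RPKM in S487A and 16700 in S487D, and mean Chga 3528 and 3224. The part of the summed level in the Rab results was not tested. Of 17 markers of other cell types found in the table, 8 were at 0 in every library, among them Ptprc (leukocytes), Cdh5 (endothelium), Col3a1 (fibroblasts) and Prss1 (acinar cells), and only Mbp, a myelin gene also made outside the nervous system, was tested. The summed level of these 17 markers was 40.9 to 44.7 RPKM in S487A and 36.2 to 37.7 in S487D.

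Genes that reached 1 RPKM in 3 or more libraries went into a limma fit on log2(RPKM + 1), and were called at a Benjamini-Hochberg adjusted p under 0.05 over the 12527 genes that passed this filter. Folds and log2 changes are on that scale, on which genes near 1 RPKM show less than their full change. Of the 55 Rab genes, 46 were tested, of which 11 rose, 13 fell and the remaining 22 were not called. The called share of the family, 52.2%, stood beside 44.4% of all genes tested. Separately, 23.9% of tested Rab genes rose, against 20.1% of all genes, and 28.3% fell, against 24.3%. The groups' values did not overlap in 28 Rab genes, or 60.9%, beside 54.6% of all genes. These shares lie near the background of a comparison in which many genes moved. The upward part of all calls was 45.3% in the main test, 58.9% once library medians were made equal and 55.4% once all quantiles were. With 3 libraries against 3, a two-sided exact permutation test for 1 gene has p = 0.1 as its smallest value, which is the value for every gene whose groups did not overlap.

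The sizes of the changes were uneven. At 1.5-fold or more, 8 Rab genes were lower (17.4% of those tested, beside 6.2% of all genes) and 0 were higher (beside 2.05%). Rab34 was just under this size in the main test (1.496-fold higher). It reached the size in several alternatives, among them a pseudocount of 0.1 (log2 change 0.62) and quantile normalization (0.639). Over the alternatives, 7 to 9 Rab genes were lower by this size and 0 or 1 higher. At 2-fold or more, 4 were lower (8.70%, beside 1.95%) and 0 higher (beside 0.543%). The median log2 change was -0.05 over the tested Rab genes and -0.01 over all genes tested, and the Rab median's sign turned after median centring (0.012) and without S487A replicate 1 (0.000135). The mean log2 change of the family was -0.19, beside -0.05 over all genes tested. The rows of 9 Rab genes overlap another row on the opposite strand (Rab1a, Rab3a, Rab7a, Rab12, Rab15, Rab22a, Rab24, Rab30 and Rab40c). The overlap, counted from start to end of each gene, ran from 27 bases (Rab24) to 16077 (Rab30). Without strand, reads from the shared bases could belong to either gene. Less messenger RNA per cell and fewer cells that express a gene cannot be told apart in such bulk libraries.

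**Figure D1:**
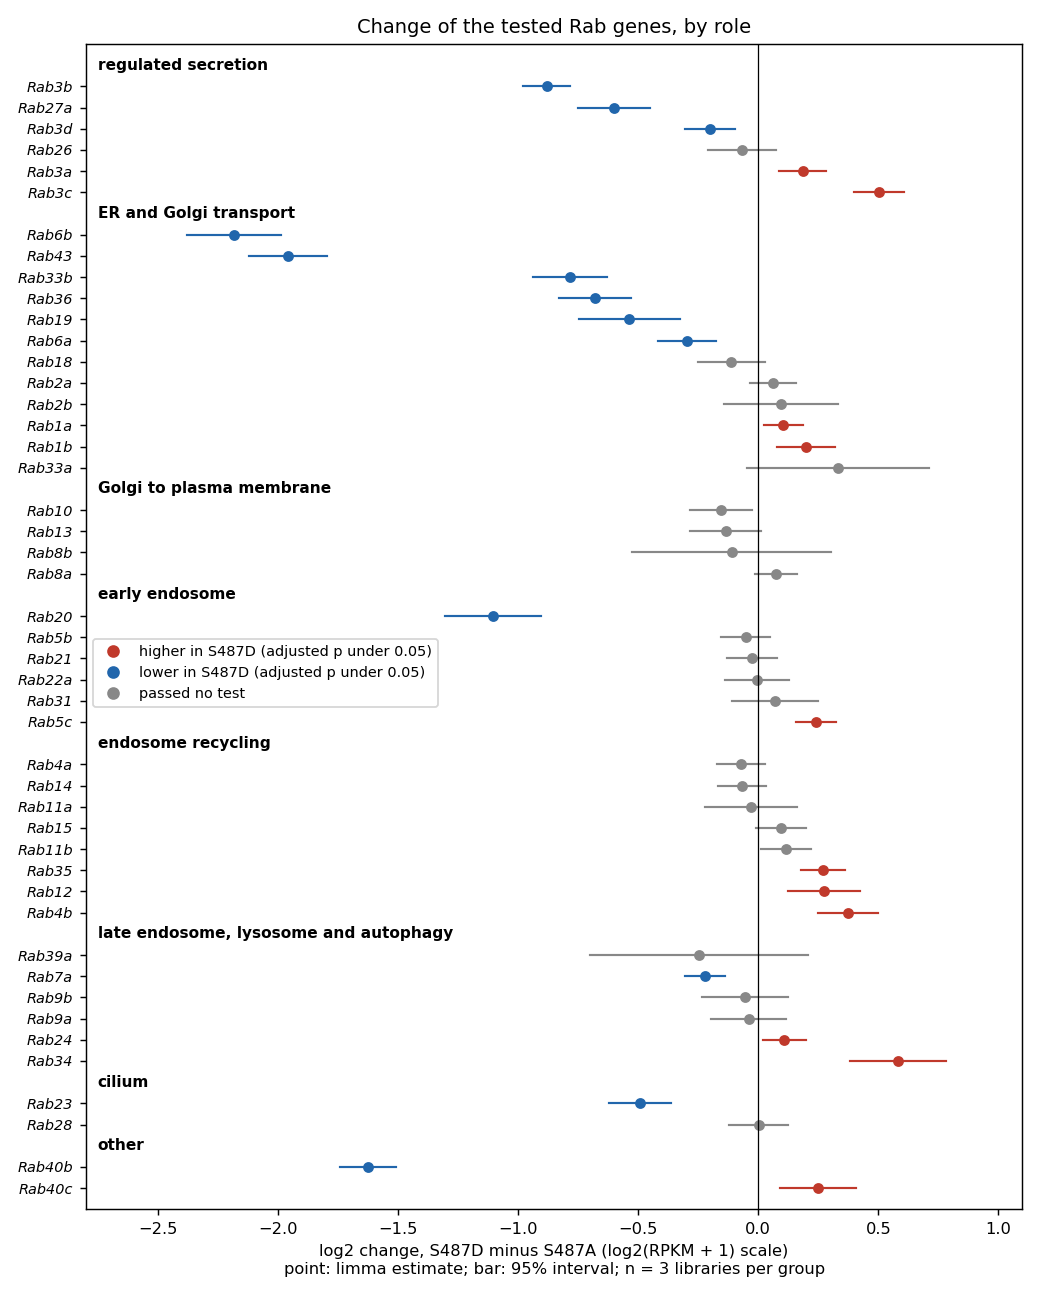
Log2 change (S487D minus S487A, x axis) of the 46 tested Rab genes, grouped by role. Points are limma estimates and bars 95% intervals not adjusted for the number of genes, so the bars of Rab10 and Rab11b leave out 0 although neither gene passed the adjusted threshold; the 4 genes below -1 are Rab6b, Rab43, Rab40b and Rab20.

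Rab genes of regulated secretion changed in both directions, and the most abundant of them fell. Rab3b, which encodes a GTPase of secretory granules, lies on chromosome 5 from 128501787 to 128568170 (rn6). It was read at 510.3, 550.0 and 553 RPKM in the S487A libraries and at 292, 284 and 298 in the S487D libraries. Every S487D library was below every S487A library, a fall of 1.84-fold (log2 change -0.88, SE 0.043, limma adjusted p = 4.20e-07). The 20 tested genes nearest to Rab3b had a median log2 change of -0.18, with 3 raised and 8 lowered, and their part was not tested. Rab3c, a close relative on chromosome 2 from 41570955 to 41786672, moved the other way. Its libraries held 26.7, 28.0 and 25.6 RPKM in S487A, against 39.4, 37.8 and 38.0 in S487D. The highest S487A library was at 28.0 and the lowest S487D library at 37.8 RPKM, and the rise was 1.42-fold (log2 change 0.50, SE 0.047, adjusted p = 2.65e-05).

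Rab3a and Rab3d, the other two Rab3 genes, changed by smaller amounts. Rab3a, the isoform best known from synaptic vesicles, was read at 48.3, 47.9 and 47.9 RPKM in S487A, against 56.4, 51.9 and 56.0 in S487D. All S487D values were higher, by 1.14-fold (log2 change 0.18, SE 0.044, adjusted p = 0.00738). The Rab3a row shares 28 bases with Mpv17l2 on the opposite strand, which rose (log2 change 0.52), and the median log2 change of its 20 nearest tested genes was 0.16; the part of either was not tested. Rab3d, a granule GTPase of exocrine and endocrine cells, held 76.9, 79.0 and 81.3 RPKM in S487A, against 69.2, 65.2 and 71.9 in S487D. Its groups did not overlap and the fall was 1.15-fold (log2 change -0.20, adjusted p = 0.00650).

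Rab3b outweighed its relatives in both groups. RPKM is scaled to gene length, which allows levels of different genes to be added. The 4 Rab3 genes summed to 692 ± 25.5 RPKM (SD, n = 3) in S487A and 453 ± 12.8 in S487D. Without Rab3b the sum was 154 ± 1.75 and 162 ± 6.11 RPKM. Rab3b made up 77.7% ± 0.58 of the Rab3 sum in S487A and 64.3% ± 0.40 in S487D, while the part of Rab3c went from 3.88% ± 0.22 to 8.47% ± 0.24 and that of Rab3a from 6.95% ± 0.29 to 12.1% ± 0.25. The ratio of Rab3b to Rab3c RPKM was 19.1, 19.6 and 21.6 in the S487A libraries and 7.42, 7.52 and 7.84 in the S487D libraries. All S487D libraries had the lower ratio.

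**Figure D2:**
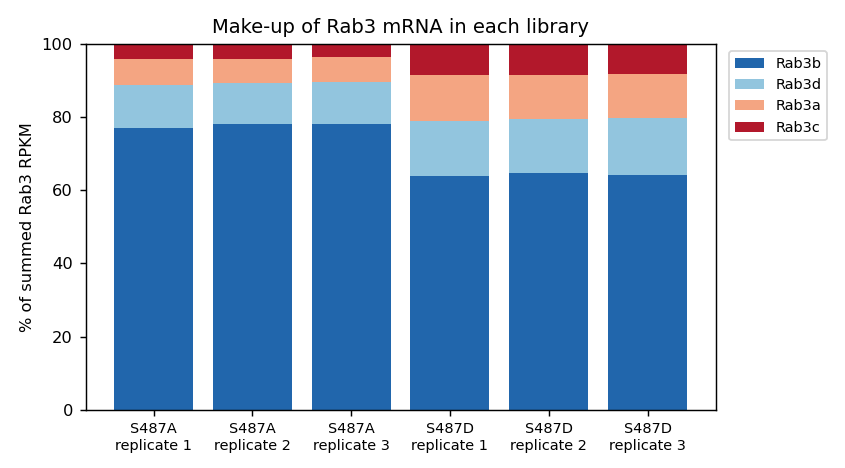
Share of each Rab3 gene in the summed Rab3 RPKM (y axis, percent) in each of the 6 libraries (x axis). Rab3b takes 77.1 to 78.1% in the S487A libraries and 63.9 to 64.7% in the S487D libraries.

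The sequences just before the start sites of Rab3b and Rab3c are shown because these close relatives moved in opposite directions. They are RefSeq sequences of the GRCr8 build, 250 bases upstream of the annotated start, 5′ to 3′ on the gene's strand. Capitals mark the GC box GGGCGG, bound by Sp1-like factors, and the core TGACG of the cAMP response element, on either strand. The Rab3b stretch (chr5:128858841-128859090, plus strand) held 2 such cores and 0 GC boxes, and the Rab3c stretch (chr2:43575944-43576193, minus strand) 1 GC box and 0 cores.
Rab3b: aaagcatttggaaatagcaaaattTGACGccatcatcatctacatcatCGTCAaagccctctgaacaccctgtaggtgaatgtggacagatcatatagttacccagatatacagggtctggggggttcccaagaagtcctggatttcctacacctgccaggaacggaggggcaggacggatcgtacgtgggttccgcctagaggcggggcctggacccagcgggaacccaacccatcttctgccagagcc
Rab3c: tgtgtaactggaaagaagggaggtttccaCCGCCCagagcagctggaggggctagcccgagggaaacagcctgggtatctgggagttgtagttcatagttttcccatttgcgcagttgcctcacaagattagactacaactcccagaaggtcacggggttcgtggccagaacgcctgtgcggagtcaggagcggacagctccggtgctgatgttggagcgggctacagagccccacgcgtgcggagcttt
Of the 55 Rab genes, 45 had such a stretch in the table. A GC box was present in 34 of these 45 (75.6%), beside 32.4% of all 27457 stretches of the same length. The core was present in 14 (31.1%, beside 19.0%), the whole element TGACGTCA in 1, and the TATA box TATAAA in 0, beside 13.1% of all. Among raised Rab genes 7 of 9 had a GC box, among lowered ones 8 of 11, among those tested but not called 17 of 17, and among those below the filter 2 of 8. Rab stretches also had more G and C, with a median of 62.8% beside 52% over all. These matches describe letters, not binding.

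Rab27a, the granule GTPase that recruits granuphilin and other docking effectors, also fell. It lies on chromosome 8 from 79722334 to 79776222 and was read at 10.9, 10.3 and 12.1 RPKM in S487A, against 6.99, 6.86 and 7.04 in S487D. The S487D libraries lay close together and below all S487A libraries, a fall of 1.52-fold (log2 change -0.60, SE 0.067, adjusted p = 8.67e-05). Of its 20 nearest tested genes, 10 fell and 0 rose, with a median log2 change of -0.21, whose part was not tested. Rab27b, the paralog of Rab27a, was below the filter at 0.148 to 0.189 RPKM (8 to 10 reads) in S487A and 0.203 to 0.358 (11 to 18 reads) in S487D and was not tested. Rab26, linked to granule maturation, held 9.37, 10.2 and 10.1 RPKM in S487A, against 8.81, 9.48 and 9.86 in S487D. Its groups overlapped (log2 change -0.07, 95% interval -0.21 to 0.07, adjusted p = 0.41). Of the 7 listed genes of this role, 6 were tested; 2 rose (33.3%, beside 20.1% of all genes), 3 fell (50.0%, beside 24.3%) and Rab26 was not called. Summed, the role held 713 ± 26.2 RPKM in S487A and 470 ± 12.9 in S487D, or 28.6% ± 0.95 and 21.4% ± 0.37 of all Rab RPKM. Most of this sum was Rab3b, at 538 ± 23.8 RPKM in S487A and 291 ± 6.84 in S487D.

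**Figure D3:**
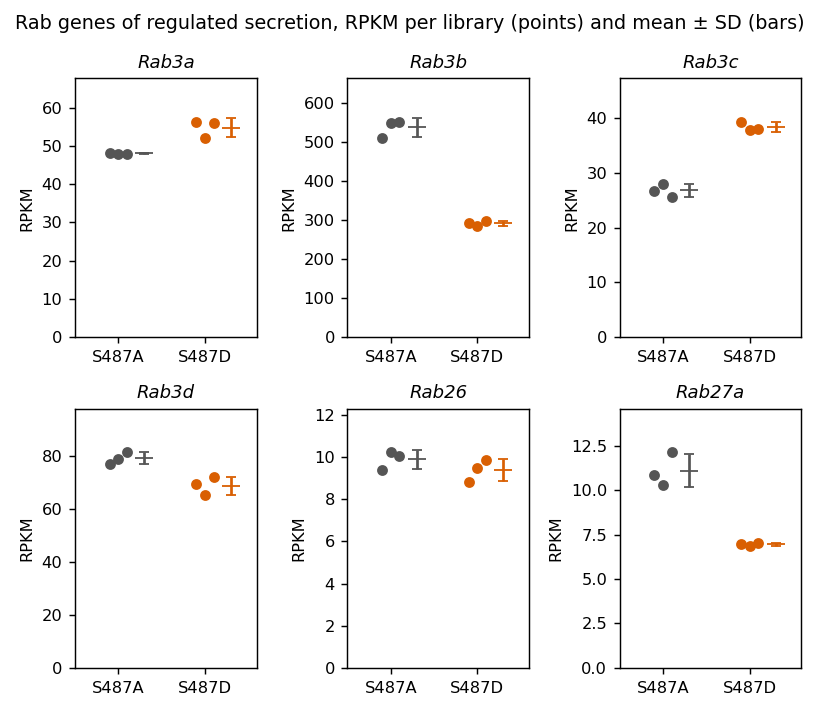
RPKM of the 6 tested Rab genes of regulated secretion (y axes from 0) by group (x axis), with 1 point per library and the mean ± SD of 3 libraries beside them. Rab3b, Rab3d and Rab27a are lower in all S487D libraries, Rab3a and Rab3c are higher, and Rab26 overlaps.

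Rab genes of the endoplasmic reticulum and Golgi included both largest falls of the family. Of 13 genes, 12 were tested; 2 rose (16.7%, beside 20.1% of all genes), 6 fell (50.0%, beside 24.3%) and 4 were not called. Rab6b, an isoform of the Golgi GTPase Rab6 known mainly from neurons, lies on chromosome 8 from 111600372 to 111668817. Its S487A libraries held 8.15, 8.18 and 8.21 RPKM (400 to 435 reads) and its S487D libraries 1.06, 0.816 and 1.21 (38 to 56 reads). The groups were far apart, with a log2 change of -2.18 (SE 0.088, adjusted p = 1.14e-07). In plain RPKM the S487A mean was 7.96 times the S487D mean. The widely expressed isoform Rab6a, on chromosome 1, fell by less, with 62.5 ± 4.75 RPKM in S487A against 50.6 ± 0.84 (log2 change -0.30, adjusted p = 0.00182). The ratio of Rab6b to Rab6a lay from 0.120 to 0.138 in S487A and 0.0162 to 0.0243 in S487D.

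Rab43, which acts in transport at the Golgi, lies on chromosome 4 from 119695012 to 119714302. It was read at 40.1, 42.5 and 44.2 RPKM in S487A, against 10.9, 8.96 and 10.7 in S487D. No library of one group came near the other, and the fall was 3.88-fold (log2 change -1.96, SE 0.072, adjusted p = 6.74e-08). Its 20 nearest tested genes had a median log2 change of 0.01, with 2 raised and 5 lowered. Rab43 ranked 18th by mean RPKM among tested Rab genes in S487A and 31st in S487D.

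Rab33b and Rab36 fell by less than these. Rab33b, a Golgi GTPase that also serves autophagy, held 9.15, 8.86 and 9.54 RPKM in S487A, against 4.94, 5.29 and 4.55 in S487D. All S487D libraries were lower, by 1.72-fold (log2 change -0.78, adjusted p = 1.76e-05). Its position, chromosome 2 from 140541619 to 140552220, lies among genes that also fell: 18 of its 20 nearest tested genes were lower, with a median log2 change of -0.77, close to its own; the part of this stretch was not tested. Rab36, on chromosome 20 from 14557511 to 14573948, held 16.7, 15.5 and 15.8 RPKM in S487A, against 9.48, 8.87 and 10.5 in S487D. The groups did not overlap (log2 change -0.68, adjusted p = 3.81e-05), while its 20 nearest tested genes had a median log2 change of 0.12 with 8 raised and 2 lowered. Rab19 also fell, to 2.26 ± 0.30 RPKM, against 3.72 ± 0.30 in S487A (log2 change -0.54).

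Rab1a and Rab1b, which carry vesicles from the endoplasmic reticulum to the Golgi, were slightly higher. Rab1b held 22.5, 20.5 and 23.3 RPKM in S487A, against 25.4, 25.6 and 25.5 in S487D. All S487D libraries were above all S487A libraries (log2 change 0.20, adjusted p = 0.0139). The 20 tested genes nearest to Rab1b had a median log2 change of 0.12, with 9 raised and 2 lowered, and their part was not tested. Rab1a, the most abundant Rab of this role, held 221, 215 and 222 RPKM in S487A, against 240.4, 236 and 230.5 in S487D. Its groups did not overlap, but the log2 change of 0.10 (adjusted p = 0.0422) was near the threshold and turned to -0.014 after quantile normalization (adjusted p = 0.725). The Rab1a call was also lost without S487A replicate 1 (0.0599) or 2 (0.131), without S487D replicate 1 (0.150), 2 (0.103) or 3 (0.0529) and in 3 further alternatives; its adjusted p spanned 0.00488 to 0.725 over the 15 tried. A separate row named Rab1-ps1 was read at 5.75 ± 1.14 and 7.10 ± 1.72 RPKM, and the counting could split reads between near-identical copies. Rab2a (118 ± 3.83 and 123 ± 4.75 RPKM), Rab2b, Rab18 and Rab33a were not called, with log2 changes from -0.11 (Rab18) to 0.33 (Rab33a). Rab2a passed after median centring (adjusted p = 0.0356; the 15 alternatives gave 0.0356 to 0.899). Rab33a, the paralog of Rab33b, had 20 to 47 reads per library and a wide 95% interval of -0.05 to 0.71, which leaves its change undetermined at this depth. Rab30 did not pass the filter (0.298 to 0.457 RPKM).

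The stretches upstream of Rab6b (chr8:112573973-112574222, plus strand) and Rab43 (chr4:121826512-121826761, minus strand), which had the 2 largest falls, are shown with that of Rab40b (chr10:107157376-107157625, minus strand), the third, described with the remaining genes. Capitals mark GGGCGG and TGACG on either strand as before. Rab6b and Rab43 held 4 GC boxes each and Rab40b 1, and none of the 3 held the core.
Rab6b: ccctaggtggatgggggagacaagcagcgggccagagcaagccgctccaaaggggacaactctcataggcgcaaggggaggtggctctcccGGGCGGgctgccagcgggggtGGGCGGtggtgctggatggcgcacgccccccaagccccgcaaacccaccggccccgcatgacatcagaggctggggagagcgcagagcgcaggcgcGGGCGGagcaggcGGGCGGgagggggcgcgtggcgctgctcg
Rab43: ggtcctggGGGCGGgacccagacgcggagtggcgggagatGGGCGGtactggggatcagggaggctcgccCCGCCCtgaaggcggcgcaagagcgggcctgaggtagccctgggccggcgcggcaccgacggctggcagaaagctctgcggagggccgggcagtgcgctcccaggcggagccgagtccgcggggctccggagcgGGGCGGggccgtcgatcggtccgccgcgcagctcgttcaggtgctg
Rab40b: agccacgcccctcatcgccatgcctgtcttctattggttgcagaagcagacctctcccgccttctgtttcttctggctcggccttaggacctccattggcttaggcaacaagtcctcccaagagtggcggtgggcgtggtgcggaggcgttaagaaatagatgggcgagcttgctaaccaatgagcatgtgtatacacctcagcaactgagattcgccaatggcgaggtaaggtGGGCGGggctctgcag
Their G and C content was 73.6, 76.4 and 56.8%. All 3 held a GC box, which most Rab stretches in the table also had, whatever the direction of the gene.

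Rab40b and Rab40c carry a SOCS box, a domain that binds ubiquitin ligase components, and the pair moved in opposite directions. Rab40b, on chromosome 10 from 110557798 to 110585424, was read at 43.4, 41.8 and 46.9 RPKM in S487A, against 13.4, 13.8 and 13.5 in S487D. The S487D libraries were nearly equal and far below the others, a fall of 3.08-fold (log2 change -1.62, SE 0.052, adjusted p = 2.47e-08). Rab40c, elsewhere on chromosome 10, held 13.9, 15.8 and 16.1 RPKM in S487A, against 19.5, 17.0 and 18.5 in S487D. All S487D values were higher (log2 change 0.25, adjusted p = 0.0171), but the call was lost without S487A replicate 1 (adjusted p = 0.0525) or S487D replicate 1 (0.0662), within a range of 0.00171 to 0.0662 over 15 alternatives. The Rab40c row shares 4506 bases with RGD1307155 on the opposite strand, which fell (log2 change -0.24). The ratio of Rab40b to Rab40c ran from 2.65 to 3.13 in S487A and from 0.689 to 0.815 in S487D, so the more abundant gene of the pair differed between the groups. Rab44 was at 0 in 5 libraries and had 1 read in the other.

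**Figure D4:**
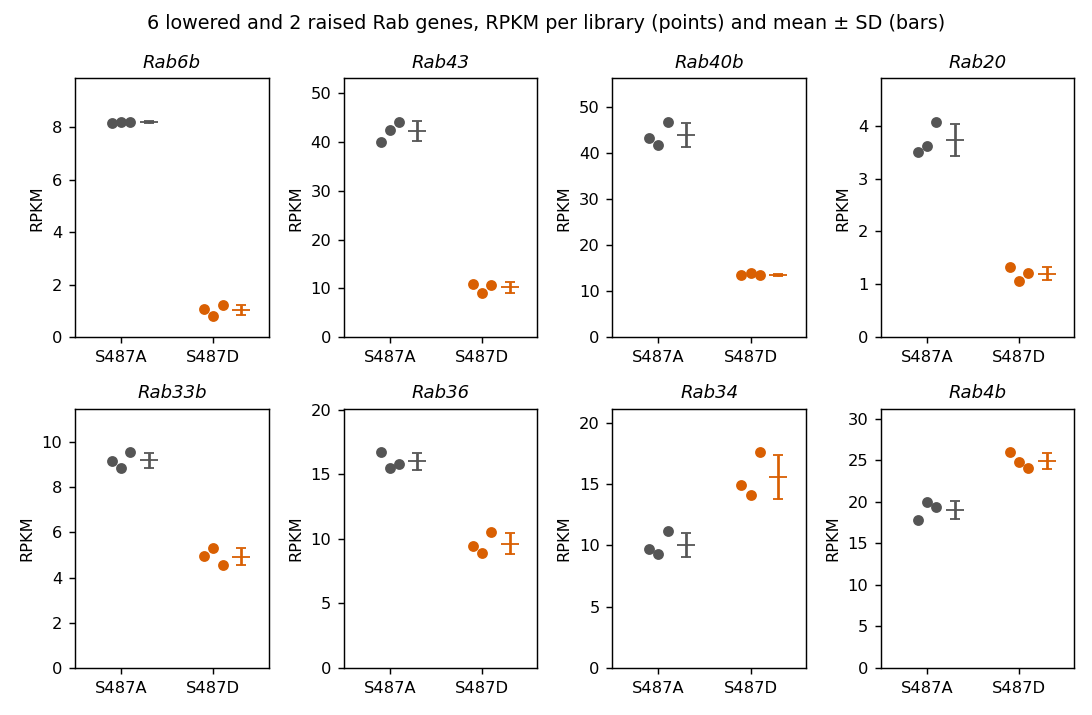
RPKM of 6 lowered Rab genes (Rab6b, Rab43, Rab40b, Rab20, Rab33b, Rab36) and 2 raised ones (Rab34, Rab4b) on y axes from 0, by group, with 1 point per library and mean ± SD of 3 libraries. In each panel the points of the 2 groups do not overlap.

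Of the early endosome genes, 1 of 6 tested rose (beside 20.1% of all genes), 1 fell (beside 24.3%) and the other 4 missed the threshold. Rab5c, a Rab5 isoform that drives fusion of early endosomes, held 117, 124 and 121 RPKM in S487A, against 141, 144 and 144 in S487D. All S487D libraries were higher (log2 change 0.24, SE 0.037, adjusted p = 7.06e-04). Rab5b held 59.4 ± 1.53 and 57.2 ± 2.51 RPKM (log2 change -0.05, 95% interval -0.15 to 0.05). The ratio of Rab5c to Rab5b ran from 1.96 to 2.15 in S487A and from 2.37 to 2.64 in S487D, without overlap. Rab20, which acts in endosome and phagosome maturation, was the gene of this role that fell. It held 3.51, 3.61 and 4.08 RPKM in S487A (52 to 62 reads) and 1.32, 1.07 and 1.22 in S487D (15 to 20 reads). Even at this low count the groups were apart (log2 change -1.10, SE 0.090, adjusted p = 1.05e-05). Rab21, Rab22a and Rab31 had log2 changes from -0.03 to 0.07 and were not called. The row named Rab5a covers 156 bases of chromosome 9 and was at 0 in all libraries, so the table gives no usable level for Rab5a. A row named Rab5al1, outside the family as chosen here, held 26.4 ± 1.46 RPKM in S487A and 22.9 ± 0.46 in S487D. Rab5al1 was called lower (limma log2 change -0.19, adjusted p = 0.0124).

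Genes of endosome recycling had 3 rises among 8 tested (37.5%, beside 20.1% of all genes) and 0 falls (beside 24.3%) with limma. With voom on the reads, 4 were higher and 0 lower, beside 2920 and 3192 of all 12527 genes. The counts were the same at an unadjusted p under 0.05, for which no share of all genes is given here. Rab4b, which returns receptors quickly to the surface, held 17.8, 19.9 and 19.3 RPKM in S487A, against 25.9, 24.8 and 24.0 in S487D. Every S487D library was higher, by 1.30-fold (log2 change 0.37, SE 0.055, adjusted p = 5.22e-04). Its paralog Rab4a was read at 63.2 ± 3.01 and 60.1 ± 1.15 RPKM (log2 change -0.07, 95% interval -0.17 to 0.03). The ratio of Rab4b to Rab4a, 0.279 to 0.332 in S487A and 0.393 to 0.441 in S487D, did not overlap. Other paralog ratios did overlap between the groups: Rab11b to Rab11a, Rab2b to Rab2a, Rab8b to Rab8a and Rab9b to Rab9a.

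Rab35, which acts in recycling from endosomes to the plasma membrane, held 66.7, 65.9 and 65.1 RPKM in S487A, against 83.0, 78.7 and 77.2 in S487D. The groups were clearly apart (log2 change 0.27, adjusted p = 5.98e-04). Rab12 held 12.3, 12.1 and 13.5 RPKM in S487A, against 15.0, 14.6 and 16.7 in S487D, again without overlap (log2 change 0.27, adjusted p = 0.00869). Rab11b, the most abundant Rab of this role, held 136, 147 and 147 RPKM in S487A, against 155, 149 and 162 in S487D. Its S487D libraries were the higher ones, but the log2 change of 0.12 passed the threshold only after median centring (adjusted p = 0.0140) or when voom was run on the reads (0.0159); its adjusted p spanned 0.0140 to 0.476 over the 15 alternatives. Rab15 (log2 change 0.09) likewise passed only after median centring (adjusted p = 0.0241, within a range of 0.0241 to 0.324). Rab11a (log2 change -0.03) and Rab14 (-0.07) were not called, and the epithelial genes Rab17 and Rab25 were at or below 0.170 RPKM in every library and were not tested.

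Among genes of late endosomes, lysosomes and autophagy, 2 rose and 1 fell among 6 tested, beside 20.1% and 24.3% of all genes. Rab7a, the main GTPase of late endosomes, held 219, 208 and 217 RPKM in S487A, against 188, 181 and 183 in S487D. All S487D libraries were lower, by 1.17-fold (log2 change -0.22, SE 0.037, adjusted p = 0.00117). Its row shares 934 bases with LOC102552138 on the opposite strand, which held 13.4 ± 0.64 RPKM in S487A and 11.7 ± 0.46 in S487D and also fell (adjusted p = 0.0336). Rab34, which positions lysosomes and takes part in making cilia, had the largest rise among tested Rab genes. It held 9.70, 9.31 and 11.2 RPKM in S487A, against 14.9, 14.2 and 17.6 in S487D. The lowest S487D library was above the highest S487A library (log2 change 0.58, SE 0.089, adjusted p = 6.35e-04).

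Rab24, linked to autophagy, was read at 88.9 ± 2.02 and 95.9 ± 2.73 RPKM, and its call (log2 change 0.11, adjusted p = 0.0484) was lost without S487A replicate 1 (0.0691), 2 (0.145) or 3 (0.0628), without S487D replicate 2 (0.136) or 3 (0.127) and in 4 further alternatives; it spanned 0.00752 to 0.145 over the 15 tried. The Rab24 row shares 27 bases with Prelid1 on the opposite strand, which rose (log2 change 0.17). Rab9a and Rab9b, which return receptors from late endosomes to the Golgi, were read at 16.7 ± 1.62 and 6.72 ± 0.78 RPKM in S487A and at 16.1 ± 0.66 and 6.41 ± 0.13 in S487D, and neither passed the test. Rab39a had overlapping groups, at 7.23 ± 1.51 and 6.04 ± 1.90 RPKM. Rab7b was at 0 in all libraries, and Rab32 and Rab38, known from melanosomes, were at or below 0.133 RPKM. A row named Rab7l1, outside the family as chosen here, fell from 6.08 ± 0.63 RPKM in S487A to 3.87 ± 0.36 in S487D (limma log2 change -0.54, adjusted p = 9.98e-04).

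Of the Rabs of Golgi-to-surface traffic, 0 of 4 passed limma in either direction at an adjusted p under 0.05, beside 44.4% of all genes. With voom on the reads, 1 was lower and 0 higher, beside 3192 and 2920 of all 12527 genes. At an unadjusted p under 0.05 the counts were also 1 and 0, and no share of all genes is given for that threshold. After median centring Rab8a was higher (adjusted p = 0.0256, within a range of 0.0256 to 0.357). Rab10, which moves glucose transporter vesicles in fat and muscle, held 77.4, 66.2 and 69.1 RPKM in S487A, against 65.3, 62.1 and 62.9 in S487D. The S487D libraries were all lower, but the nearest values of the groups were within 1 RPKM of each other, and the adjusted p of 0.0516 lay at the threshold. The Rab10 log2 change of -0.16 passed with 5 alternatives, among them voom on recovered reads (0.0155) and leaving out S487A replicate 2 (0.0226), and its adjusted p spanned 0.0155 to 0.152 over the 15 tried. Rab8a (64.0 ± 2.02 and 67.3 ± 0.44 RPKM) and Rab13 (11.6 ± 0.17 and 10.46 ± 0.91) had log2 changes of 0.07 and -0.14. Rab13 passed without S487D replicate 2 (adjusted p = 0.0261, within a range of 0.0261 to 0.427). Rab8b had only 9 to 21 reads per library.

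Rab23 and Rab28 are the ciliary members. Rab23, a restrainer of Hedgehog signalling, was lower in S487D, at 8.45 ± 0.24 RPKM against 12.3 ± 0.58 (log2 change -0.49, SE 0.058, adjusted p = 1.19e-04). Rab28 held 18.9, 17.4 and 18.1 RPKM in S487A, against 18.7, 17.2 and 18.5 in S487D. Its groups covered the same range, with a 95% interval of the log2 change from -0.12 to 0.12.

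Mean levels of the tested Rab genes in S487A ran from 538 RPKM (Rab3b) to 2.11 (Rab8b). The order of the 7 highest was the same in both groups: Rab3b, Rab1a, Rab7a, Rab11b, Rab5c, Rab2a and Rab24. In S487A, Rab1a and Rab7a (219 ± 4.09 and 215 ± 5.71 RPKM) were within their spread, as were Rab5c and Rab2a (121 ± 3.54 and 118 ± 3.83). In S487D, Rab1a (236 ± 4.99) stood clear of Rab7a (184 ± 3.45), and Rab5c (143 ± 1.51) of Rab2a (123 ± 4.75). All Rab genes together summed to 2489.6 ± 35.3 RPKM in S487A and 2197 ± 29.7 in S487D; without Rab3b the sums were 1952 ± 32.9 and 1906 ± 24.7. The family sum thus moved mainly with 1 gene.

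**Figure D5:**
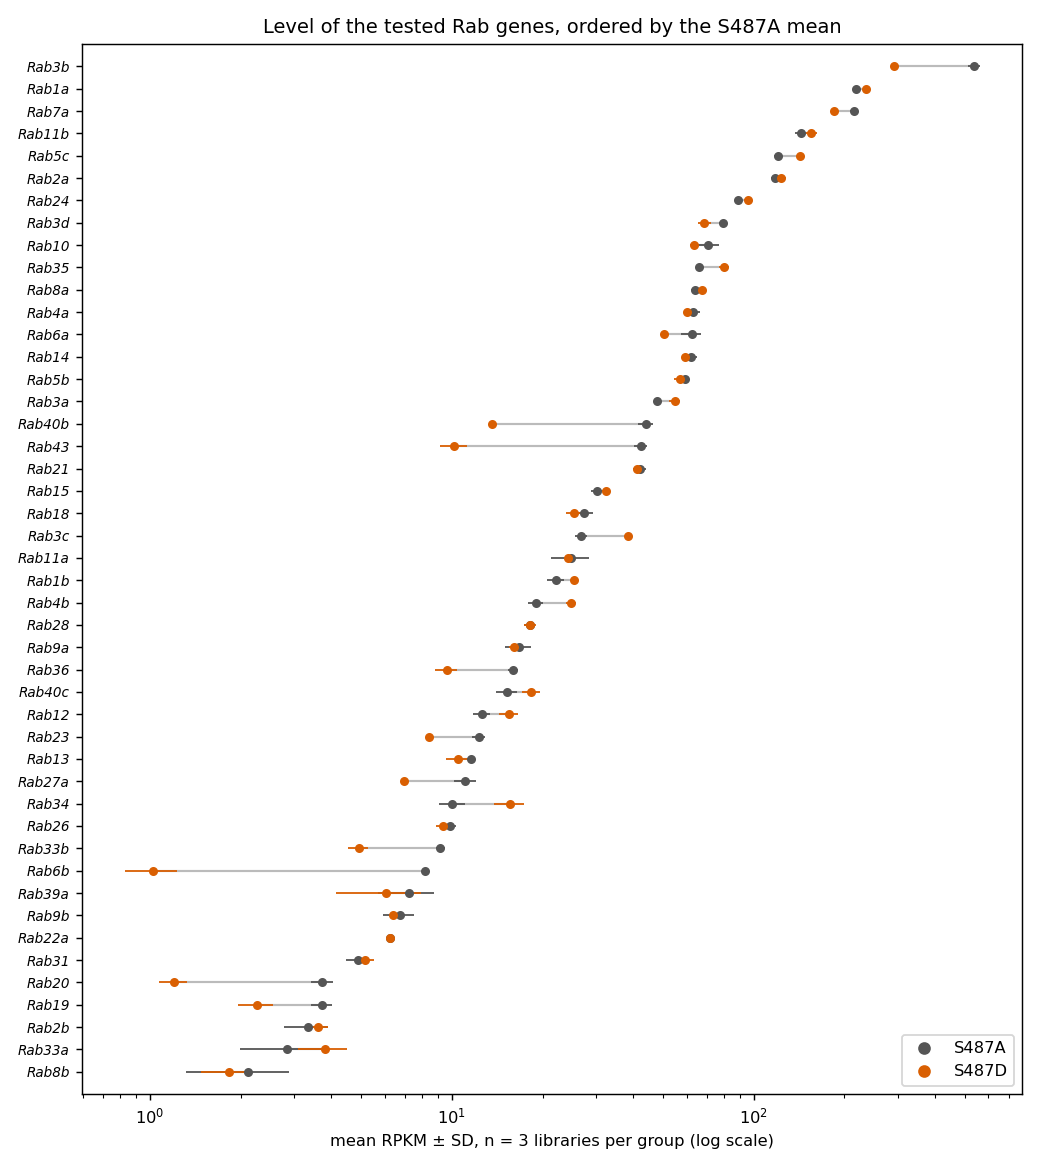
Mean RPKM ± SD over 3 libraries (log x axis) of the 46 tested Rab genes in S487A and S487D, ordered by the S487A mean. Rab3b is highest in both groups, and the widest gaps on this axis belong to Rab6b, Rab43, Rab40b and Rab20.

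The proteins that load, unload and read Rabs were taken from a list of 134 genes, of which 130 were found and 114 tested. Of these, 16 rose (14.0%, beside 20.1% of all genes), 37 fell (32.5%, beside 24.3%) and 61 were not called, with a median log2 change of -0.10 beside -0.01 over all genes. The split was 21 higher and 27 lower after quantile normalization, beside 3096 and 2492 of all 12527 genes. After median centring it was 22 and 32, beside 3512 and 2453 of all genes. Neighbouring genes were examined for the Rab genes alone, so whether a regulator moved together with its region was not tested. Among exchange factors 2 of 31 tested rose (6.45%, beside 20.1% of all genes) and 12 fell (38.7%, beside 24.3%). Madd, the exchange factor for Rab3 and Rab27, was lower in S487D, at 43.0 ± 3.85 RPKM against 50.1 ± 2.76 (log2 change -0.22, adjusted p = 0.0260). St5 (log2 change -0.96), Dennd4c (-0.59) and Dennd4a (-0.65) fell by more, while Rabgef1, which activates Rab5, rose by 0.17. Among GTPase-activating proteins 6 of 35 rose (17.1%, beside 20.1% of all genes) and 10 fell (28.6%, beside 24.3%), shares near the background. Rabgap1l (-0.91), Tbc1d32 (-0.87) and Sgsm1 (-0.73) were lower and Tbc1d25 (0.48), Evi5 (0.47) and Tbc1d30 (0.47) higher on the log2 scale.

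Of 7 tested effectors of Rab3 and Rab27, 2 rose and 1 fell, a called share of 42.9% beside 44.4% of all genes. Sytl4, which encodes granuphilin, an effector of Rab27a, was read at 17.3, 15.9 and 18.5 RPKM in S487A, against 67.4, 64.7 and 67.9 in S487D. It was thus 3.72-fold higher (log2 change 1.89, adjusted p = 1.74e-08) in the same libraries in which Rab27a was lower. Rph3al, whose product Noc2 binds Rab3 and Rab27, held 76.6, 83.8 and 83.4 RPKM in S487A, against 52.7, 50.1 and 52.9 in S487D. It fell in every S487D library relative to every S487A library (log2 change -0.64, adjusted p = 6.05e-06). Among effectors of other Rabs 5 of 33 rose (15.2%, beside 20.1% of all genes) and 12 fell (36.4%, beside 24.3%). Gcc2 (log2 change -0.99), a Golgi tether that binds Rab6, and Ocrl (-0.51), an inositol phosphatase, were among the lower ones. Rabep2 (0.57), which binds Rab4 and Rab5, was among the higher ones. Of 8 genes for prenylation and membrane cycling 1 rose (12.5%, beside 20.1% of all genes) and 2 fell (25.0%, beside 24.3%). Gdi2 was higher by 0.15 on the log2 scale (limma adjusted p = 0.0234). Chm, a Rab escort protein (log2 change -0.39), and Rabif (-0.39) were lower.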

How the data were processed

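Total RNA extracted with Trizol was made into TruSeq RNA libraries, per the labels' protocols. That kit leaves strand unmarked, so reads shared by overlapping rows (9 of the 55 Rab rows overlap another) could belong to either gene. The submitters' processing notes name bcl2fastq 2.17, cutadapt, TopHat2 2.0.13 and the rn6 build, with read counter and annotation not given in the sources used here. RPKM per gene and library was deposited by the authors with gene position and length, per the file headers. RPKM times length fell within 0.05 of a whole multiple of 1 read for at least 99.95% of values, which gave reads per gene.

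Sample titles gave groups and replicate numbers. The main test was limma 3.58.1 (R 4.3.3), two-sided and with an intensity trend, on log2(RPKM + 1) of genes with RPKM of 1 or more in 3 or more libraries; its only term was the group, and p-values were adjusted by Benjamini-Hochberg. It was checked on simulated reads. P-values reflect how these samples vary, which may be technical variation only. Libraries of a group were not duplicates (median chi-square 1.36 to 1.88 times that of counting alone). The members, role lists and tests were chosen with earlier results of these data known. Values per library were given for tested genes of regulated secretion, the 8 largest called rises and falls, and the highest gene of each role; regulators were named by smallest p, up to 4 per direction and role, with Madd, Sytl4, Rph3al and Gdi2 in any case, and some regulators that this rule names are not reported here. Ratios of paralogs, sums, neighbouring genes and promoter motifs were chosen after values were seen. RefSeq promoter sequences (GRCr8) were matched by symbol; the 55 symbols are all current there. Alternatives were pseudocounts of 0.1 and 0.01, no filter or one at RPKM 5, quantile normalization, median centring, no trend, a replicate block, voom with trimmed-mean scaling on the recovered reads, and each library left out.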

Additional observations from a re-analysis of the deposited data

How the results depend on the processing

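Of 24 called Rab genes, 21 kept their call in every alternative run in which they were tested, among them all 13 lowered genes; Rab1a, Rab24 and Rab40c lost it in some. The log2 change of Rab1a turned to -0.014 after quantile normalization, and the other 23 kept their sign. The cause was not tested. Counts of raised Rab genes ran from 8 to 15 and of lowered ones from 12 to 14. The median log2 change of the family was -0.0066 after quantile normalization and 0.012 after median centring, and ran from -0.0692 to 0.000135 with 1 library left out. Rab19 reached 1.5-fold lower with a pseudocount of 0.1, for 9 such genes in place of 8, and 1 gene was then at least 1.5-fold higher. After quantile normalization, and after median centring, 7 were lower by this size and 1 higher. With replicate number as a block, 10 Rab genes rose and 14 fell, and 5335 genes in all were called. Deviations of same-numbered libraries correlated at 0.0035, -0.060 and 0.010, so the numbers do not pair the libraries; Rab33a passed with the block (adjusted p = 0.0494). Depth limits Rab8b (9 to 21 reads per library), Rab33a (20 to 47) and Rab39a (24 to 57).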
